A study of Mus musculus with 31 samples.

Results

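Ovaries of Wv/Wv mouse embryos were compared at 16 and 14 days post coitum (dpc), with 3 arrays at each age and so 6 of the 31 arrays of the series, which covers ovaries and testes of both genotypes from 12 to 16 dpc. The arrays were chosen by their sample titles alone. Every Wv/Wv embryo is homozygous for a point mutation of Kit, the receptor tyrosine kinase that germ cells need to survive and to reach the gonad, and the mutation acts in every cell that expresses Kit. The 16 dpc and 14 dpc Wv/Wv ovaries therefore share the mutation and differ in age. Wild-type ovaries at 16 and 14 dpc (3 arrays each), Wv/Wv testes at 16 dpc (3 arrays) and 14 dpc (2 arrays), and Wv/Wv ovaries at 12 dpc (2 arrays) were used for side-by-side values. The labels give no strain background. The arrays are labelled biological replicates, but nothing states that each held the gonads of a different embryo or litter, so the p-values reflect the spread among these arrays, part of which may be technical.

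In the fetal mouse ovary the supporting cells become pregranulosa cells under Foxl2 and the Wnt4 and Rspo1 signals, while stroma, vessels and resident macrophages develop around them. Germ cells enter meiosis in the same days, but a Kit-mutant ovary holds few of them, so its RNA comes mostly from somatic and blood cells. Fetal red blood cells change over the same period from primitive cells of yolk sac origin, which carry embryonic globins, to definitive cells made in the liver, which carry adult globins.

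The values are log2 signals of Affymetrix 3′ arrays on whole gonads, and changes are 16 minus 14 dpc on the log2 scale with the standard error (SE) of the fit. In whole tissue, more cells of a type and more RNA per cell cannot be told apart. The arrays fall into a class with a wide spread over probe sets (SD 2.33 to 2.39, 21 arrays) and a class with a narrow spread (SD 1.77 to 2.18, 10 arrays), and the 3′ minus 5′ signal of Gapdh, a sign of RNA or label length, differs with the class. At 16 dpc arrays 1 and 3 of the Wv/Wv ovary are wide and array 2 is narrow, while at 14 dpc array 1 is wide and arrays 2 and 3 are narrow. Their Gapdh difference was 2.07, 0.73 and 2.56 at 16 dpc, against 2.28, 0.68 and 0.61 at 14 dpc. The class is therefore a term in the fit, and the arrays of one class are compared with each other in the text where the classes lie far apart. The Wv/Wv ovary arrays at 12 dpc are both wide, and array 1 is their only match of class at 14 dpc. All changes given from 12 to 14 dpc therefore lean on the class term. Array 1 at 16 dpc stands apart from the rest of the series: 40 genes lay more than 1 log2 unit above every other of the 31 arrays. They are led by Krt13, a keratin of stratified epithelium, at 8.84, 3.75 and 3.31 at 16 dpc, against 3.39, 3.74 and 3.94 at 14 dpc, and only 1 of the 40, Cav2, was among the genes called changed. Several results, though not all in which this array reads highest, are given with and without it. The sex labels of the 6 arrays fit their sex-linked genes, with Xist between 12.0 and 12.8 and the Y-linked gene Eif2s3y between 3.47 and 3.89, against 6.74 to 10.7 for Eif2s3y in testes. Kit transcripts were present in all 6 arrays (7.65 to 8.92 at 16 dpc, 6.83 to 8.60 at 14 dpc), which says nothing of the point mutation.

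Between the ages embryonic globin transcripts and the chromatin protein gene Hmga2 fell in the Wv/Wv ovary, and the largest rises included lysozyme (Lyz1), elastin and tenascin C. The progesterone receptor gene Pgr also rose. Of 18194 genes 201 changed (limma, Benjamini-Hochberg adjusted p below 0.05), which is 1.1% of those tested. At 16 dpc 181 genes were higher (0.995%) and 20 were lower (0.11%), and 55 of the higher genes and 6 of the lower genes changed at least 2-fold. The median change was 0.84 in the higher genes and -0.82 in the lower genes, against 0.03 over all genes. For 200 of the 201 genes every 16 dpc array lay above, or below, every 14 dpc array of its own class, which held for 16.3% (above) and 12.1% (below) of all genes. For 126 genes the 3 arrays of each age did not overlap at all, against 3.33% (above) and 2.29% (below) of all genes. The counts depend on the arrays in the fit. With the left-out wild-type testis array put back, so over all 31 arrays, 58 genes were higher and 5 lower, and without the class term 51 and 5. Without array 1 at 16 dpc 84 genes were higher and 7 lower, and without array 1 at 14 dpc, the only wide array of that age, 529 were higher and 213 lower. The split between higher and lower also moved with the scaling, to 118 and 36 after cyclic loess and 132 and 33 after quantile normalization. Of the 44 named genes that changed, 21 were called whichever of the 6 arrays was left out. They include Hba-x, Hbb-bh1 and Hmga2 among the falls, and Lyz1, Rtl3, Slc26a7, Lmcd1, Eln, Tnc, Mgp, Thbs1, Col6a3, Aoc3, Gstt1, Pgr and Dync1i1 among the rises.

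**Figure D1:**
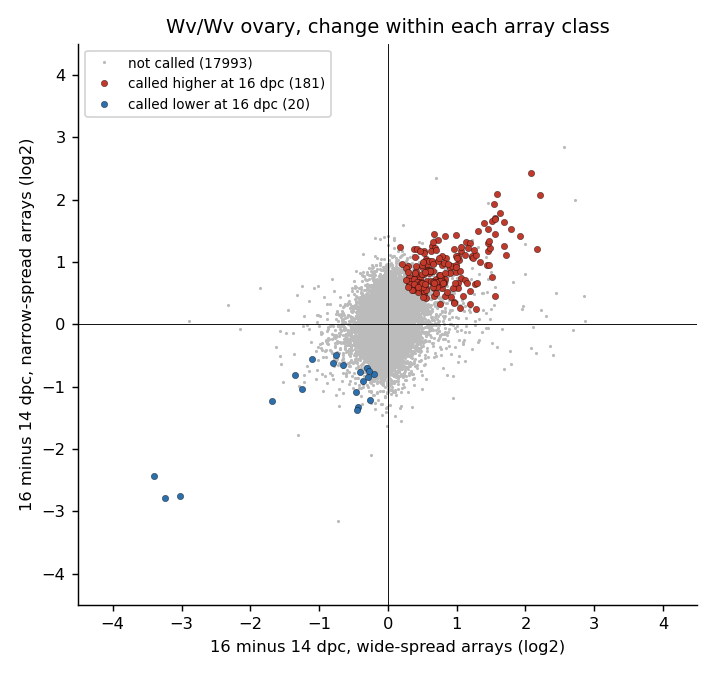
Change from 14 to 16 dpc in the Wv/Wv ovary for each of 18194 genes, as the difference of wide-spread arrays (x axis, log2) and of narrow-spread arrays (y axis, log2). The 181 genes called higher at 16 dpc (red) and the 20 called lower (blue) lie on the same side of 0 in both array classes.

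The largest changes were falls of the embryonic globins. Hbb-y encodes the embryonic epsilon-type beta globin, Hbb-bh1 another embryonic beta-like globin, and Hba-x the embryonic zeta globin of the alpha cluster. Hbb-y (chromosome 7) read 11.55, 11.66 and 10.96 at 16 dpc, against 14.29, 14.44 and 14.38 at 14 dpc, a change of -3.05 ± 0.70 (SE, adjusted p = 0.0318), or at least 8.27-fold lower. Hba-x (chromosome 11) read 7.76, 8.97 and 7.35 at 16 dpc, against 10.95, 11.53 and 11.29 at 14 dpc, a change of -3.01 ± 0.56 (adjusted p = 0.00627), or 8.03-fold lower. The 2 ages were far apart for both genes, with no overlap between any arrays.

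Hbb-bh1 (chromosome 7) read 4.71, 5.03 and 5.45 at 16 dpc, against 8.32, 8.10 and 7.55 at 14 dpc (change -3.01 ± 0.45, adjusted p = 0.0011). Its 16 dpc arrays all lay under 5.705, the 40th percentile of all values and here the limit of low signal, so its fall is given as at least 5.16-fold. Such a bound sets each array under the limit to 5.705 and averages the difference between the ages over the array classes. At 12 dpc the Wv/Wv ovary had read 14.27 and 14.51 for Hbb-y, 12.21 and 13.82 for Hba-x, and 12.06 and 13.36 for Hbb-bh1. Hbb-bh1 was thus already 4.55 ± 0.53 lower at 14 dpc than at 12 dpc and Hba-x 2.21 ± 0.66 lower (adjusted p = 8.5e-06 and 0.047), while the Hbb-y signals at both of those ages lie near the top of the scale. The brightest probe set of an array read 14.49 or more on each of the 31 arrays, so a difference of Hbb-y between 12 and 14 dpc cannot be read from this probe set. Its fall at 16 dpc is given as a lower bound for the same reason, and another Hbb-y probe set changed by -4.52 ± 0.78 (adjusted p = 0.00468 over all probe sets). Hba-x and Hbb-bh1 were called with each of the 6 arrays left out in turn. Hbb-y, which has the largest SE of the 3, was called in 1 of the 6 fits, that without array 1 at 14 dpc, with adjusted p-values between 0.0387 and 0.125. Its SD was 0.37 at 16 dpc and 0.08 at 14 dpc in the Wv/Wv ovary. In wild-type ovaries at 16 dpc, which share the fit's estimate of the spread, it was 2.39. The probe sets of Hbb-y and Hbb-bh1 carry the suffix that marks probes shared with similar sequences, so part of their signal may come from related globins.

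**Figure D2:**
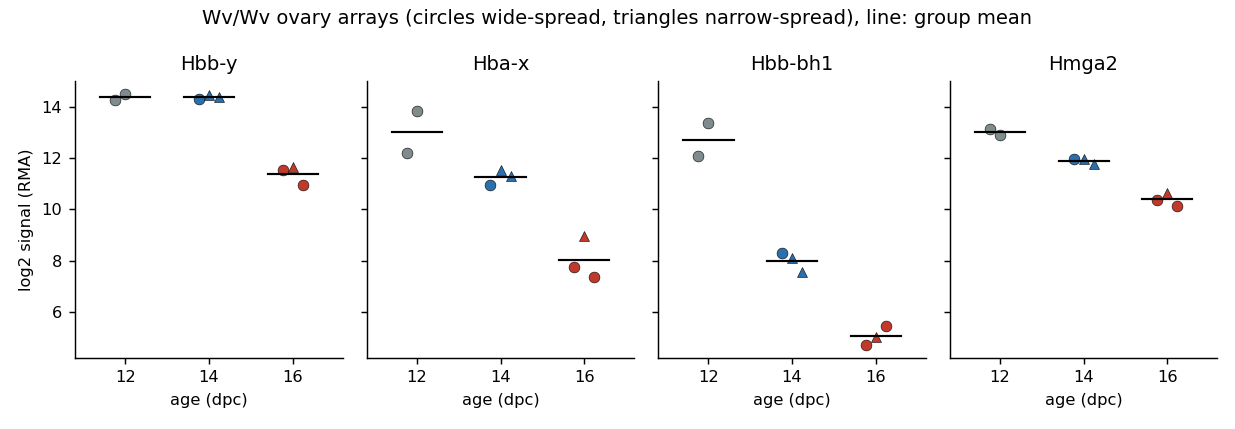
Log2 signal of Hbb-y, Hba-x, Hbb-bh1 and Hmga2 (y axis) on each Wv/Wv ovary array at 12, 14 and 16 dpc (x axis), with circles for wide-spread and triangles for narrow-spread arrays and a line at the group mean. Every 16 dpc array lies below every 14 dpc array in all 4 panels, and the Hbb-y arrays at 12 and 14 dpc lie near the top of the array's scale.

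The 250 bases before the start of Hbb-y and Hba-x are shown because these genes fell together. The promoter set used held no sequence for Hbb-bh1, which is therefore not shown. Capitals mark CACCC and CCAAT, boxes described in globin promoters, on either strand. The sequences come from RefSeq (GRCm38.p6), at chr7:103853208-103853457 on the minus strand for Hbb-y and chr11:32276350-32276599 on the plus strand for Hba-x, each 5′ to 3′ on the strand of the gene.
Hbb-y: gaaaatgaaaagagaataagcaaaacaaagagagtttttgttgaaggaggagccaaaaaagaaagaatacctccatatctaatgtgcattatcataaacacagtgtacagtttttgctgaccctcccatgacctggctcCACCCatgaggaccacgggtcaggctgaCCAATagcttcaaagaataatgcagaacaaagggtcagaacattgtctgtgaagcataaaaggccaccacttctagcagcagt
Hba-x: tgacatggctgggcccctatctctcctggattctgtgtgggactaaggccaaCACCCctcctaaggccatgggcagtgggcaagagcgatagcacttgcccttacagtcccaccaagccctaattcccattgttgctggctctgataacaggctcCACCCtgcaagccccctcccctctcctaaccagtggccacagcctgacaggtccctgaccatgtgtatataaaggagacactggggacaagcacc
Hbb-y held 1 CACCC and 1 CCAAT, and Hba-x held 2 CACCC and 0 CCAAT in this window. Of 32851 promoter windows of the same length 52.0% held CACCC, 33.9% held CCAAT and 16.9% held both, so the letters are common and are given as a description.

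No other listed erythroid gene passed the test. In the list of 16 measured erythroid genes 3 fell, the embryonic globins, and 0 rose, with a list median of -0.11. Only 5 of the 16 changes were above 0, against 10189 of all 18194 genes, and the 3 genes named next are among those 5. Alas2, the first enzyme of heme synthesis in red cells, changed by 0.82, Gata1, the erythroid transcription factor, by 0.70, while Slc4a1, an anion exchanger of the red cell membrane, changed by 0.65. None of these passed the test. Hbb-b2, an adult beta globin, read 6.74, 6.70 and 6.67 at 16 dpc, against 5.60, 5.38 and 5.54 at 14 dpc. Its change of 1.08 ± 0.38 did not pass the test (adjusted p = 0.207), although the arrays of the 2 ages do not overlap. The Hbb-b2 probe set also carries the suffix of shared probes. The adult alpha globins Hba-a1 and Hba-a2 differed by -0.15 ± 0.11 and 0.01 ± 0.22, with every array of both ages under the limit of low signal. The mean signal of the erythroid list, the embryonic globins included, was 6.42 to 6.59 at 16 dpc, against 6.83 to 7.10 at 14 dpc. The part of blood content in the fall of the embryonic globins was not tested.

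The next largest fall was that of Hmga2. Hmga2, an architectural chromatin protein of embryonic tissues, read 10.37, 10.64 and 10.15 at 16 dpc, against 11.95, 11.97 and 11.77 at 14 dpc, a change of -1.43 ± 0.21 (adjusted p = 0.000874), or 2.70-fold lower. It had been higher still at 12 dpc, at 13.15 and 12.88, so every array lay below every array of the age before. Mycn, a proto-oncogene transcription factor of growing tissues, read 9.37, 9.15 and 9.43 at 16 dpc, against 10.50, 9.89 and 9.54 at 14 dpc (-0.86 ± 0.19, adjusted p = 0.0231). Asb4, an ankyrin repeat and SOCS box protein, read 8.11, 7.46 and 7.99 at 16 dpc, against 9.40, 8.38 and 8.18 at 14 dpc (-1.02 ± 0.21, adjusted p = 0.0134). For both genes the 16 dpc arrays lay below all 14 dpc arrays, by a small gap in each. Asb4 kept its call in 3 and Mycn in 2 of the 6 fits with 1 array left out. The dimmer probe sets of Mycn changed by -0.23 and -0.19 and were not called.

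Mcm10, a protein of replication origins, fell by 0.64 ± 0.14 (adjusted p = 0.0255), with 7.34, 6.97 and 7.69 at 16 dpc, against 7.81, 7.74 and 7.88 at 14 dpc. It kept its call in 2 of the 6 fits with 1 array left out, and its dimmer probe sets changed by 0.05 and -0.06 and were not called. In the list of 25 mitotic S and M phase genes 0 were called and the median was -0.18, with 2 members above 0, against 10189 of all 18194 genes. The members of largest change were Ube2c, the ubiquitin-conjugating enzyme of the anaphase-promoting complex, at -0.45 ± 0.16 (adjusted p = 0.2) and Plk1, a mitotic kinase, at -0.34 ± 0.21 (adjusted p = 0.547). Mki67, a marker of cycling cells, differed by -0.11 ± 0.15. The remaining named falls included 2610318N02Rik (at least 1.4965-fold), 5033430I15Rik (at least 1.11-fold) and Casq1, the calcium-binding calsequestrin of skeletal muscle (at least 1.56-fold). The others were D430020J02Rik (-0.69 ± 0.16) and Plvap, described with the endothelium. Bounds are given for the genes whose 16 dpc arrays all lay under the limit of low signal.

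**Figure D3:**
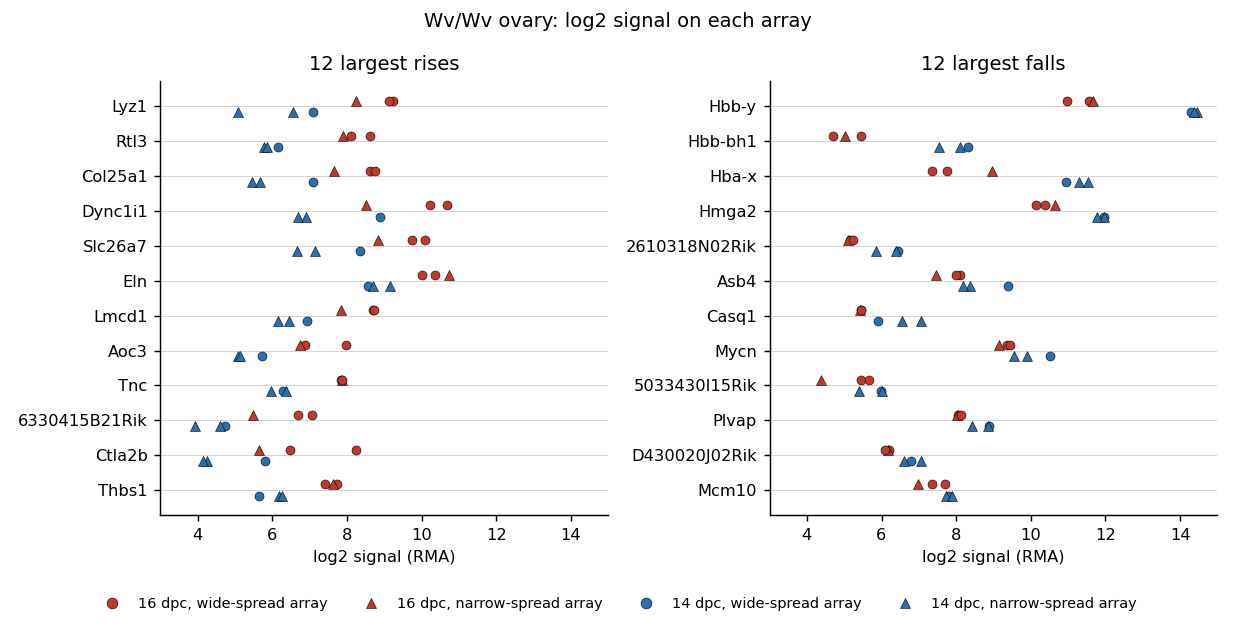
Log2 signal (x axis) of the 12 largest called rises (left) and the 12 largest called falls (right) on each Wv/Wv ovary array at 16 dpc (red) and 14 dpc (blue), with circles for wide-spread and triangles for narrow-spread arrays. The 16 dpc arrays lie apart from the 14 dpc arrays of the same class for every gene, and for Dync1i1, Ctla2b and 5033430I15Rik the 2 ages overlap when the classes are pooled.

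Rtl3 (chromosome X), a gene derived from a retrotransposon Gag sequence, read 8.10, 7.89 and 8.63 at 16 dpc, against 6.15, 5.76 and 5.86 at 14 dpc, a change of 2.17 ± 0.37 (adjusted p = 0.00273), or 4.51-fold. Slc26a7, an anion transporter (chromosome 4), read 9.73, 8.83 and 10.09 at 16 dpc, against 8.36, 6.66 and 7.15 at 14 dpc (1.79 ± 0.31, adjusted p = 0.00401). In both genes all 16 dpc arrays exceeded all 14 dpc arrays, and Slc26a7 had also risen by 3.15 ± 0.37 between 12 and 14 dpc (adjusted p = 8.6e-06). A dimmer Slc26a7 probe set changed by 0.22 at 16 dpc and was not called.

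Dync1i1, an intermediate chain of cytoplasmic dynein (chromosome 6), read 10.23, 8.51 and 10.68 at 16 dpc, against 8.90, 6.69 and 6.90 at 14 dpc (1.81 ± 0.23, adjusted p = 0.00052). The wide 14 dpc array lay above the narrow 16 dpc array, so the ages separate only within a class. Lmcd1, a LIM-domain co-regulator that binds GATA6 in mouse cells, read 8.71, 7.84 and 8.73 at 16 dpc, against 6.92, 6.45 and 6.14 at 14 dpc (1.73 ± 0.20, adjusted p = 0.000165). Aoc3, a vascular amine oxidase also known as an adhesion protein, read 6.87, 6.75 and 7.96 at 16 dpc, against 5.73, 5.09 and 5.13 at 14 dpc (1.70 ± 0.27, adjusted p = 0.00183). For Lmcd1 and Aoc3 the ages did not overlap. Col25a1, a transmembrane collagen, rose by 1.89 ± 0.44 (adjusted p = 0.0337) and 6330415B21Rik by at least 1.39-fold. Col25a1 was called in 1 of the 6 fits with 1 array left out, and a dimmer probe set of it changed by 0.03. Ctla2b, a homolog of cysteine protease propeptides, rose by 1.63 ± 0.32 (adjusted p = 0.0107), with its highest value, 8.25, on array 1 at 16 dpc. Without that array its change was 1.14 (adjusted p = 0.0423), and without array 3 at 14 dpc its adjusted p was 0.0529.

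Several matrix and stromal genes rose. Elastin (Eln, chromosome 5), the core of elastic fibres, read 10.00, 10.72 and 10.36 at 16 dpc, against 8.56, 9.15 and 8.70 at 14 dpc, a change of 1.73 ± 0.24 (adjusted p = 0.000874), or 3.32-fold. Tenascin C (Tnc, chromosome 4), a matrix glycoprotein of remodelling tissue, read 7.83, 7.86 and 7.86 at 16 dpc, against 6.29, 5.96 and 6.37 at 14 dpc (1.70 ± 0.24, adjusted p = 0.000874). Mgp, the matrix Gla protein that inhibits calcification, read 11.27, 11.48 and 10.93 at 16 dpc, against 9.62, 10.28 and 10.02 at 14 dpc (1.44 ± 0.22, adjusted p = 0.00111). The 2 ages were separate for each of these genes, and the 3 arrays of Tnc at 16 dpc lay close together.

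Eln and Mgp had also risen between 12 and 14 dpc, by 1.70 ± 0.28 and 1.79 ± 0.26 (adjusted p = 0.00053 and 0.0001), whereas Tnc differed by -0.08 ± 0.29 over those days. Biglycan (Bgn, chromosome X), a small proteoglycan, rose by 0.73 ± 0.17 (adjusted p = 0.0297), and Thbs1, the matricellular thrombospondin 1, by 1.62 ± 0.28 (adjusted p = 0.00386). Thbs1 kept its call whichever of the 6 arrays was left out, and Bgn in 1 of the 6 fits. Dimmer probe sets of Eln, Tnc and Thbs1 changed by 0.54, 1.11 and 0.65 and were not called. Of 17 measured laminin, basement membrane and matrix glycoprotein genes 3 rose (Eln, Tnc and Bgn) and 0 fell, and the list median was 0.21 against 0.03 over all genes. Fn1, which encodes fibronectin, differed by 0.37 and Sparc by 0.18, and neither passed the test.

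In the collagen list Col6a3, a chain of the microfibrillar collagen VI, rose by 0.88 ± 0.15 (adjusted p = 0.00298). It read 12.01, 11.33 and 12.11 at 16 dpc, against 11.54, 10.38 and 9.98 at 14 dpc, so the narrow 16 dpc array lay below the wide 14 dpc array and above both narrow ones. It was the 1 called member of 18 measured collagens. The list median was 0.33, and 16 of the 18 changes were above 0, among them Col5a2 at 0.77, Col6a1 at 0.64, Col6a2 at 0.62 and Col3a1 at 0.60. Without array 1 at 14 dpc 5 collagens were called (Col3a1, Col5a2, Col6a1, Col6a2 and Col6a3), and without array 1 at 16 dpc 1, Col6a3. In the interstitial stroma list 1 of 16 genes rose, Mgp, and the median was 0.27. Lum, a small leucine-rich proteoglycan of stroma, differed by 1.65 and Ogn, another of that family, by 0.85 without passing the test. Nr2f2, a transcription factor of stromal progenitors, differed by 0.01 ± 0.33.

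Of 12 smooth muscle genes 2 rose. Tagln, an actin-binding protein of smooth muscle, read 9.00, 8.83 and 9.00 at 16 dpc, against 8.17, 8.02 and 7.99 at 14 dpc (0.88 ± 0.19, adjusted p = 0.0219). Mylk, the myosin light chain kinase, read 11.00, 10.21 and 11.09 at 16 dpc, against 10.47, 9.33 and 9.37 at 14 dpc (0.73 ± 0.13, adjusted p = 0.00538). The ages did not overlap for Tagln and separated within the array classes for Mylk. With 1 array left out Mylk kept its call in 5 of 6 fits (adjusted p = 0.0556 without array 2 at 16 dpc) and Tagln in 1 of 6.

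In the insulin-like growth factor list of 14 genes, Igfbp7, a secreted binding protein, rose and Hmga2 fell. Igfbp7 read 9.92, 9.68 and 10.14 at 16 dpc, against 8.81, 8.74 and 8.42 at 14 dpc, a change of 1.22 ± 0.27 (adjusted p = 0.0225). Igfbp7 was called in 2 of the 6 fits with 1 array left out, and its dimmer probe sets changed by -0.02 and 0.25. Igf2, the fetal growth factor, was among the highest signals and differed by -0.03 ± 0.15. Of 16 endothelial genes 1 rose and 1 fell. Tek, the angiopoietin receptor, read 8.53, 6.92 and 8.28 at 16 dpc, against 7.93, 6.06 and 5.44 at 14 dpc (0.93 ± 0.20, adjusted p = 0.0184). Plvap, the protein of fenestral diaphragms, read 8.06, 8.02 and 8.13 at 16 dpc, against 8.89, 8.85 and 8.43 at 14 dpc (-0.71 ± 0.16, adjusted p = 0.0318). Plvap separated the ages on all arrays and Tek within a class. Pecam1, a pan-endothelial adhesion molecule, differed by 0.15 ± 0.19, and without array 1 at 16 dpc neither Tek nor Plvap was called (adjusted p = 0.0768 and 0.103). With 1 array left out Tek kept its call in 3 and Plvap in 1 of 6 fits.

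Some macrophage genes rose. Of 17 measured macrophage and leukocyte genes 5 were called higher and 0 lower, with a list median of 0.33. The mean signal of the list ran from 6.56 to 6.86 at 16 dpc, against 6.24 to 6.25 at 14 dpc, without overlap. The 2 arrays at 12 dpc, both wide, had read 6.85 and 6.74, and the list median change from 12 to 14 dpc was -0.53. The list mean at 16 dpc was thus close to that at 12 dpc. Csf1r, the receptor for macrophage colony-stimulating factor, read 10.58, 9.86 and 10.18 at 16 dpc, against 9.36, 9.37 and 9.00 at 14 dpc (0.85 ± 0.19, adjusted p = 0.0258). Lyz2, the lysozyme of myeloid cells, read 7.61, 7.64 and 7.61 at 16 dpc, against 5.92, 6.68 and 6.08 at 14 dpc (1.52 ± 0.31, adjusted p = 0.0136). Both were higher on every 16 dpc array than on any 14 dpc array. At 12 dpc Csf1r had averaged 10.17 and Lyz2 6.53, against 10.21 and 7.62 at 16 dpc.

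Cd53, a leukocyte tetraspanin, rose by 0.83 ± 0.17 (adjusted p = 0.0184), Cd68, a lysosomal glycoprotein of macrophages, by 0.82 ± 0.20 (adjusted p = 0.0445), and Fcgr3, an Fc receptor, by 0.79 ± 0.17 (adjusted p = 0.0219). Lyz1 (chromosome 10), the neighbouring lysozyme gene, had the largest rise of the comparison, 2.30 ± 0.38 (adjusted p = 0.00242), with 9.22, 8.24 and 9.13 at 16 dpc, against 7.10, 6.55 and 5.09 at 14 dpc. The sequences of Lyz1 and Lyz2 are close and the Lyz1 probe set holds shared probes, so which of the 2 gave the signal is uncertain. Of the other Lyz1 probe sets, 1 with shared probes rose by 2.04 ± 0.27 and 1 without changed by -0.18 ± 0.17. For Csf1r the other probe sets changed by 0.89 and -0.01 and were not called. Cd53 read 6.08, 7.41 and 6.16 at 16 dpc, against 5.58, 6.33 and 6.38 at 14 dpc, so its ages separated only within the array classes. The other Cd53 probe set changed by -0.18 and was not called. Other macrophage genes did not pass the test: Adgre1, a surface receptor of macrophages, differed by 0.06, Cx3cr1 by 0.06 and Ptprc, the pan-leukocyte CD45, by 0.33. Without array 1 at 16 dpc 1 of the 17 genes was called, Cd53, and the median was 0.23, while without array 1 at 14 dpc 4 were called. Over the 6 fits with 1 array left out Lyz1 kept its call in 6, Lyz2 in 3, Csf1r and Cd53 in 2 each, and Cd68 in 1. Of the mast cell list, another Kit-dependent lineage, 0 of 11 genes were called and the median was 0.02.

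Among 12 steroid, gonadotrophin and other hormone receptors, Pgr, the progesterone receptor, rose. Pgr (chromosome 9) read 6.85, 6.18 and 7.25 at 16 dpc, against 5.58, 5.27 and 5.19 at 14 dpc, a change of 1.29 ± 0.17 (adjusted p = 0.00052). All 16 dpc arrays exceeded all 14 dpc arrays, and because the 14 dpc arrays lay under the limit of low signal the rise is given as at least 1.87-fold. The call held with each of the 6 arrays left out (adjusted p between 0.000134 and 0.00461), but dimmer Pgr probe sets changed by 0.34 and -0.09 and were not called. Esr1, the estrogen receptor alpha, read 10.21, 10.26 and 10.33 at 16 dpc, against 9.48, 9.19 and 9.15 at 14 dpc, and its difference of 0.93 ± 0.26 did not pass the test (adjusted p = 0.0918). The list median was 0.32. Esr2, the estrogen receptor beta, lay under the limit of low signal at both ages.

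In the steroidogenesis list 1 of 9 measured genes rose, Akr1c14, a 3-alpha-hydroxysteroid dehydrogenase. It read 10.81, 9.20 and 10.88 at 16 dpc, against 9.96, 8.34 and 8.15 at 14 dpc (1.01 ± 0.23, adjusted p = 0.0276), after a rise of 2.59 ± 0.27 between 12 and 14 dpc (adjusted p = 1.7e-06), and was called in 1 of the 6 fits with 1 array left out. Star, the cholesterol carrier of steroid-making cells, differed by 0.05 ± 0.21 at a signal between 6.56 and 7.04. Gstt1, a glutathione transferase, rose by 1.05 ± 0.18 (adjusted p = 0.00273), as the 1 called member of 20 detoxification genes, 19 of which had a change above 0 with a median of 0.18. Cd36, a fatty acid and thrombospondin receptor, was the 1 called member of 17 lipid genes (higher at 16 dpc, adjusted p = 0.0281), but its mean signal lay under the limit at both ages, so no size is given.

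No pregranulosa gene passed the test. Of 19 measured genes 0 were called, the median was 0.03 as over all genes, and the mean signal of the list ran from 9.62 to 9.72 at 16 dpc and from 9.52 to 9.73 at 14 dpc. Foxl2, the transcription factor that maintains the ovarian supporting cell, read 10.39, 10.33 and 10.06 at 16 dpc, against 9.58, 9.52 and 9.57 at 14 dpc. Its arrays did not overlap between the ages, but its difference of 0.80 ± 0.21 missed the threshold (adjusted p = 0.0719), and without array 1 at 14 dpc it was called (0.97, adjusted p = 0.0345). Fst, the activin antagonist follistatin, differed by 0.19 ± 0.23, Wnt4 by -0.01 ± 0.21, Rspo1 by 0.45 ± 0.19 and Kitl, the ligand of Kit, by 0.18 ± 0.21. Lgr5, a receptor for R-spondins, differed by 0.43 ± 0.22 after a rise of 2.07 ± 0.26 between 12 and 14 dpc (adjusted p = 2.9e-05), and Foxl2 had risen by 1.57 ± 0.25 in those earlier days (adjusted p = 0.00039).

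Of 14 early gonad transcription factors 0 were called, with Nr5a1 at -0.00 ± 0.31, Wt1 at -0.01 ± 0.14 and Gata4 at 0.18 ± 0.32. Signalling lists also held 0 calls: 17 canonical Wnt targets and feedback genes (median -0.17), 23 BMP, activin and TGF-beta genes (0.11), 15 Notch genes (0.04), 12 hedgehog genes (0.07) and 15 retinoid genes (-0.04). The nearest to the threshold was Gdf10, a BMP-related ligand, at 0.93 ± 0.24 (adjusted p = 0.0647). Of 18 genes of early follicles and granulosa maturation 0 were called, and Gatm, an enzyme of creatine synthesis, differed by 1.31 ± 0.34 (adjusted p = 0.0591). Genes of the Hox clusters held 0 calls of 29 with 6 changes above 0 (median -0.15), and genes of complement and the interferon response 0 of 13 with 12 above 0 (median 0.48).

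**Figure D4:**
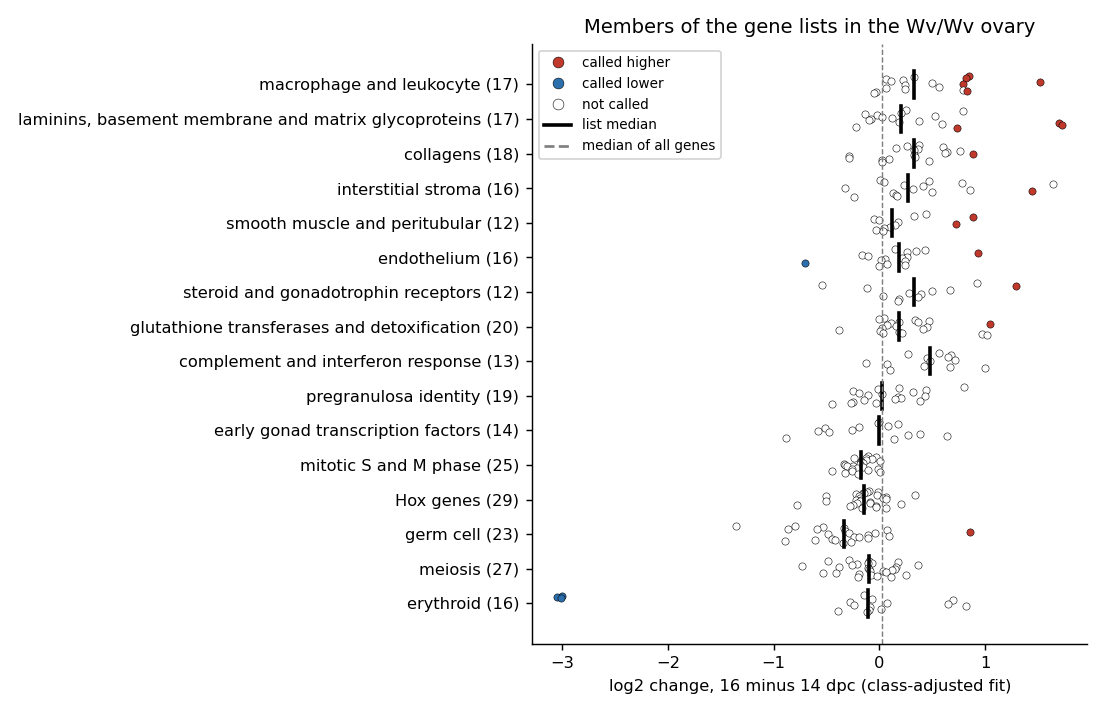
Log2 change from 14 to 16 dpc in the Wv/Wv ovary (x axis) for each measured gene of 16 lists (rows, number of genes in brackets), with genes called higher in red, called lower in blue and not called in white. Bars mark the list medians and the dashed line the median of all genes, 0.03; the macrophage list holds the most called rises, 5, and the 3 called falls of the erythroid list lie near -3.

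Germ cell transcripts were low at both ages. The mean signal of 23 germ cell genes ran from 4.47 to 4.62 at 16 dpc, against 4.66 to 5.16 at 14 dpc, while wild-type ovaries had 7.33 to 8.73 at 16 dpc and 8.79 to 9.46 at 14 dpc. The list median change was -0.33, and the highest Wv/Wv value belonged to array 1 at 14 dpc. Dazl, an RNA-binding protein of germ cells, read 5.05, 4.39 and 5.73 at 16 dpc, against 7.54, 4.51 and 4.43 at 14 dpc, and Ddx4, the germ cell RNA helicase, 3.19, 3.26 and 3.95 at 16 dpc, against 6.46, 3.28 and 3.13 at 14 dpc. Apart from that array the ages lay within the same range for Ddx4.

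The change of Dazl was -0.80 ± 0.52 (adjusted p = 0.56) and that of Ddx4 -1.36 ± 0.45 (adjusted p = 0.167), and without array 1 at 14 dpc they were 0.22 and -0.51. Of 27 meiosis genes 0 were called (median -0.09), and of 19 oocyte genes 0 (median 0.05). Tdrd5, a Tudor-domain protein of the piRNA pathway, was the 1 called germ cell gene and rose, with 6.13, 6.29 and 6.34 at 16 dpc, against 5.26, 5.51 and 5.73 at 14 dpc (0.86 ± 0.21, adjusted p = 0.0466). Its ages did not overlap, but the call was lost when any 1 of the 6 arrays was left out.

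Markers of neighbouring tissues were tested because whole gonads can carry mesonephros, adrenal, nerve or surface cells. Of 11 mesonephros and kidney tubule genes, 7 adrenal cortex genes, 18 neuron and glia genes, 17 Sertoli genes and 14 surface epithelium genes 0 were called in each list, with medians of -0.08, -0.10, -0.12, 0.02 and 0.17. Pax8, a tubule transcription factor, read 6.87, 7.18 and 7.38 at 16 dpc, against 7.68, 7.71 and 7.61 at 14 dpc, lower on all arrays without passing the test (-0.48 ± 0.22, adjusted p = 0.359). The surface epithelium list averaged 9.39 on array 1 at 16 dpc, against 7.17 and 7.76 on the other 16 dpc arrays and 7.04 to 7.83 at 14 dpc. Msln, a mesothelial surface protein, read 9.37 there, against 4.31 to 4.97 on the other 5 arrays.

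The same age step in the wild-type ovary is set beside these changes, but its array classes are less balanced. All wild-type ovary arrays at 16 dpc are narrow, while at 14 dpc array 1 is narrow and arrays 2 and 3 are wide. No wide arrays can therefore be compared between the wild-type ages. The wild-type changes and the genotype interaction lean on the fitted class term more than the Wv/Wv changes do. In wild-type ovaries 230 genes were called between 14 and 16 dpc (1.26% of those tested). Of the 181 rises of the Wv/Wv ovary 157 had a change above 0 in the wild-type ovary, which 45.8% of all genes had, and 14 were called there the same way. Of the 20 falls 14 had a change below 0, which 54.2% of all genes had, and 4 were called, Hbb-y, Hba-x, Asb4 and Mycn. No gene was called in opposite directions in the 2 genotypes.

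Changes in the Wv/Wv and the wild-type ovary stood side by side at 1.73 and 1.43 for Eln, 1.44 and 1.00 for Mgp, 0.88 and 0.86 for Col6a3, and 0.73 and 0.72 for Mylk, each called in both. For Hbb-y they were -3.05 and -3.03, for Mycn -0.86 and -0.97. Other genes called in the Wv/Wv ovary had small changes in the wild type: 1.81 and 0.08 for Dync1i1, and 1.29 and 0.10 for Pgr. The age by genotype interaction, the test of that difference, called 0 genes (0% of those tested), with 1903 at an unadjusted p below 0.05 and a smallest adjusted p of 0.0638, so none of these differences passed it. Array 2 of the wild-type ovary at 16 dpc reads high for embryonic globins, with Hbb-y at 13.69 against 9.65 and 9.48 on the other 2 arrays of its group. Its germ cell list mean was 8.73, against 7.33 and 7.43 on those arrays and 8.79 to 9.46 in wild-type ovaries at 14 dpc. Stra8 read 11.90 against 8.91 and 8.76, and Pou5f1 8.34 against 5.84 and 5.33. Its meiosis list mean, 8.98, lay between theirs, 8.96 and 9.04. Why this array stands nearer the younger age in some genes was not tested. Without that array 357 genes had a called interaction, without array 1 of the Wv/Wv ovary at 14 dpc 114, without array 1 of the wild-type ovary at 14 dpc 7, and without array 2 of the Wv/Wv ovary at 16 dpc 1.

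In Wv/Wv testes, gonads with the same mutation and few germ cells, 126 genes were called between 14 and 16 dpc (0.693%). Of the 181 rises of the Wv/Wv ovary 139 had a change above 0 in the testis, which 44.1% of all genes had, and 19 were called the same way. Of the 20 falls 19 had a change below 0, which 55.9% of all genes had, and 6 were called. Changes in the Wv/Wv ovary and the Wv/Wv testis stood at -3.05 and -3.33 for Hbb-y, -3.01 and -3.44 for Hba-x, -1.43 and -1.96 for Hmga2, 1.73 and 1.69 for Eln, 2.30 and 2.77 for Lyz1, and 1.73 and 1.31 for Lmcd1, each called in both gonads.

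The age by gonad interaction called 24 genes (0.132%), 17 with a higher and 7 with a lower change in the ovary. Of the 24, 10 also had a called change in the ovary, all of them rises, and the 6 largest of these and Pgr are described. Edaradd, the adaptor of the ectodysplasin receptor, rose by 1.19 ± 0.17 in the ovary and changed by -0.72 ± 0.19 in the testis, an interaction of 1.91 ± 0.25 (adjusted p = 0.00121). The probe set used for Edaradd holds shared probes, and its 4 other probe sets changed by 0.18 to 0.33 in the ovary, none of them called. For Dync1i1 the changes were 1.81 ± 0.23 in the ovary and -0.05 ± 0.26 in the testis, an interaction of 1.86 ± 0.34 (adjusted p = 0.0243). For Tnc they were 1.70 ± 0.24 in the ovary and -0.09 ± 0.27 in the testis, an interaction of 1.79 ± 0.36 (adjusted p = 0.0483). Pgr had 1.29 ± 0.17 in the ovary and 0.05 ± 0.19 in the testis, an interaction of 1.24 ± 0.25 (adjusted p = 0.0483). In none of these 4 genes was the testis change itself called.

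Rragd, a small GTPase of amino acid sensing, rose by 0.93 ± 0.17 in the ovary, against -0.77 ± 0.18 in the testis. Mia, a small secreted protein first described in melanoma, rose by 1.17 ± 0.18, against -0.37 ± 0.20, and Pla2r1, a receptor for secreted phospholipases, by 0.82 ± 0.14, against -0.64 ± 0.16. Their interactions were 1.71 ± 0.25, 1.55 ± 0.27 and 1.46 ± 0.21 (adjusted p = 0.00256, 0.0155 and 0.00256). Dimmer probe sets of Rragd changed by 0.06 and 0.23 in the ovary and 1 of Pla2r1 by 0.35, none called. The 14 dpc testis group has 2 arrays, and leaving out single arrays moved the count of called interactions between 5 and 85. The count was 5 without array 2 and 75 without array 1 of the Wv/Wv testis at 14 dpc, and 85 without array 1 of the Wv/Wv ovary at 14 dpc.

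**Figure D5:**
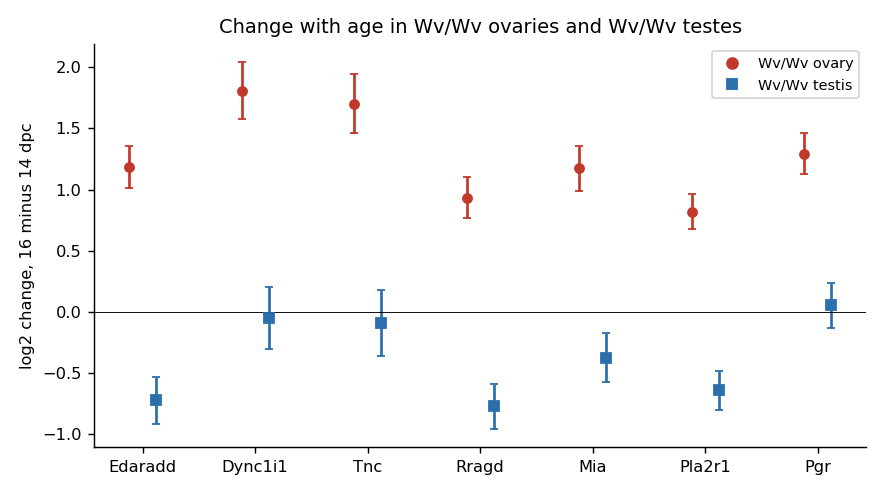
Log2 change from 14 to 16 dpc (y axis) in Wv/Wv ovaries (red circles) and Wv/Wv testes (blue squares) for 7 of the 10 genes with a called change in the ovary and a called age by gonad interaction (the 6 largest and Pgr), with bars of 1 SE of the fit. The ovary changes lie between 0.82 and 1.81 and the testis changes between -0.77 and 0.05.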

How the data were processed

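RNA of whole mouse gonads was hybridised to Affymetrix 3′ arrays as biotin-labelled cRNA made with a 3′ IVT kit, per the labels' protocols. The values that the authors deposited are on the log2 scale, 1 per probe set and array for 45101 probe sets. RMA is named in the submitters' processing notes. Which arrays went through it together, and its version, is not given in the sources used here. Precision is limited by the number of arrays. Of the probe sets 34958 have 1 gene symbol in the platform annotation, 932 several, and 9211 are not listed. Each symbol was represented by its brightest probe set, by the mean of all 31 arrays, which left 18194 genes.

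Changes were fitted with limma 3.58.1 in R 4.3.3 (lmFit, eBayes), with 1 mean per group and the array class (wide or narrow SD over probe sets) as a term over 30 arrays and 17 residual degrees of freedom. Wild-type testis array 1 at 16 dpc, whose spread lay below all others, was left out. The class term was called in 13540 genes. Genes with an adjusted p below 0.05 within a comparison were called. For a lower-bound fold, arrays of the lower age were set to 5.705, the 40th percentile, and the differences between the ages within the wide and within the narrow class were averaged. Age by genotype and age by gonad interactions were fitted in the same model.

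The text names the 12 largest called rises and falls whose class-matched arrays do not overlap, up to 4 called members of each list or the 2 largest where none was called, a fixed set of marker genes, and the 6 largest interactions in each direction among genes called in the ovary. Other genes are named as examples of their list. Members and lists were chosen with earlier results of these data known. The listed Cyp19a1 and H19 have no probe set with 1 symbol and were not analysed here. Names and chromosomes come from GRCm38.p6.

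Simulated data used the fitted group means, with those of the compared groups set equal (18194 genes, 100 changed at each size). In them the 16 versus 14 dpc fit recovered 90% at a log2 change of 1 and 97% at 2, with 8 false calls. The genotype interaction recovered 49% and 99%, and the gonad interaction 64% and 96%. The simulated errors were independent and normal and the class term acted as fitted. Arrays that stand apart were not simulated, so the real arrays may give lower recovery or more false calls. Other settings tried were no class term, the SD as a term, all arrays, 1 class alone, only the groups compared, array weights, cyclic loess, quantile normalization, housekeeping centring, a low-signal filter, every probe set, a 2-fold minimum, a trended robust prior, a replicate block and each array left out. Tables used Python 3.11.15 with pandas 2.3.3 and numpy 2.4.6, and figures matplotlib 3.10.9.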

Additional observations from a re-analysis of the deposited data

Results flagged for a closer look

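In 7 named genes called in the Wv/Wv ovary the change from 14 to 16 dpc differed between Wv/Wv ovaries and Wv/Wv testes, by the test of the interaction itself. The difference of the changes, ovary minus testis, was 1.91 for Edaradd, 1.86 for Dync1i1, 1.79 for Tnc, 1.71 for Rragd, 1.55 for Mia, 1.46 for Pla2r1 and 1.24 for Pgr on the log2 scale. For Tnc and Pgr the adjusted p was 0.0483, close to the threshold. Without array 1 of the Wv/Wv ovary at 16 dpc, which carries epithelial transcripts, 16 of the 24 interactions were called, and Tnc was not among them (1.77, adjusted p = 0.102). Without the class term 4 were called, Edaradd and Pla2r1 among them. Within wide-spread or narrow-spread arrays alone 0 were called, with 736 and 688 genes at an unadjusted p below 0.05 in limma. The difference for Edaradd was 1.45 in wide-spread and 2.23 in narrow-spread arrays, and that for Tnc 1.69 in each. The chosen Edaradd probe set holds shared probes, and the other 4 were not called in the ovary. No group holds 4 or more arrays, so single arrays far from their group were not tested for.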

How the results depend on the processing

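Against 181 higher and 20 lower genes, the counts were 51 and 5 without the class term, 104 and 28 with the SD as a term, 58 and 5 over all 31 arrays, 43 and 11 in wide-spread arrays alone, 47 and 9 with only the groups compared, 240 and 59 with array weights, 118 and 36 after cyclic loess, 132 and 33 after quantile normalization, 115 and 20 after housekeeping centring, and 55 and 6 with a 2-fold minimum. In narrow-spread arrays alone they were 0 and 0, with 3 residual degrees of freedom and 877 genes at an unadjusted p below 0.05. With 1 array left out they ranged from 84 to 529 higher and 7 to 213 lower: 84 and 7 without array 1, 110 and 8 without array 2 and 87 and 10 without array 3 at 16 dpc, and 529 and 213, 126 and 7, and 91 and 17 without arrays 1, 2 and 3 at 14 dpc. Of 44 named called genes 0 changed direction under any setting run. The genotype interaction called 2 genes with array weights, 1 after quantile normalization, 5 over every probe set, and 0 to 357 with 1 array left out; wide-spread arrays alone allow no such fit. The gonad interaction called 24, against 4 without the class term, 6 over all arrays, 0 in wide-spread or narrow-spread arrays alone (736 and 688 at an unadjusted p below 0.05), 191 with array weights, 15 after housekeeping centring, and 5 to 85 with 1 array left out. That last count was 9 without array 3 of the Wv/Wv ovary at 16 dpc, 85, 9 and 12 without its arrays 1, 2 and 3 at 14 dpc, 13, 8 and 10 without arrays 1, 2 and 3 of the Wv/Wv testis at 16 dpc, and 75 and 5 without its arrays 1 and 2 at 14 dpc.

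The labels do not say whether same-numbered arrays form pairs, and the main fit did not pair them. Class-adjusted correlations of same-numbered arrays were -0.11, -0.10 and -0.15. Without the class adjustment, deviations from the group means correlated at 0.73, 0.65 and -0.73. With so few arrays per group these values cannot decide whether the numbers mark pairs. With the replicate number as a block 172 genes were higher and 18 lower, 1 gene had a called genotype interaction and 16 a called gonad interaction. Of 201 called genes 107 have other probe sets, 191 in all, of which 29 were called the same way, 0 the opposite way and 45 had the opposite sign. The causes of these shifts were not tested. No detection calls were used, and 16 called genes had both age means under the limit of low signal.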

Other observations

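The values in this part were chosen after the data were seen. Of 7 measured caveolin and cavin genes, which build the small membrane invaginations called caveolae, 5 were called higher at 16 dpc, against 0.995% of all genes, but 0 of the 5 were called without array 1 at 16 dpc. The changes were 0.75 ± 0.18 for Cav1, 0.84 ± 0.20 for Cav2, 0.98 ± 0.23 for Cavin1, 0.75 ± 0.18 for Cavin2 and 0.56 ± 0.12 for Cavin3 (adjusted p between 0.0217 and 0.038). Dimmer probe sets of Cavin1 changed by 0.06 and 0.09 and that of Cav2 by -0.12, none of them called. Those of Cavin2 changed by 0.85 (not called) and 1.19 (called). The muscle forms Cav3 and Cavin4 differed by -0.01 ± 0.19 and 0.27 ± 0.14 at signals under 5. Cav1 read 12.11, 11.02 and 11.19 at 16 dpc, against 10.86, 10.68 and 10.19 at 14 dpc, without overlap, and its highest value is again on array 1 at 16 dpc. Without that array the change of Cav1 was 0.49 (adjusted p = 0.149) and that of Cavin2 0.78 (adjusted p = 0.0848).

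Parts of the receptor for adrenomedullin and calcitonin gene-related peptide also rose. Calcrl, the receptor chain, changed by 0.90 ± 0.19, Ramp1, which with Calcrl forms the receptor for calcitonin gene-related peptide, by 1.30 ± 0.21, and Ramp2, which forms the adrenomedullin receptor, by 0.51 ± 0.12, all called. Ramp3 differed by -0.33 ± 0.15 and the ligand Adm by -0.41 ± 0.28, not called. Ramp1 read 7.04, 6.77 and 7.28 at 16 dpc, against 5.91, 5.40 and 5.77 at 14 dpc, with no overlap. Its dimmer probe sets changed by 0.09 and -0.11 and were not called. Those of Calcrl changed by 0.83 (called) and -0.04 (not called). Thbs2, the second thrombospondin, rose by 1.24 ± 0.15, while Thbs3 and Thbs4 differed by 0.39 ± 0.37 and 0.08 ± 0.17. Akr1c18, which converts progesterone to a less active form, rose by 0.73 ± 0.15, and Svs5, a seminal vesicle secretory gene, by 0.83 ± 0.20. Of the other genes of that family Svs6 was called higher with both age means under the limit of low signal, and Svs2, Svs3a and Svs4 differed by 0.14, -0.15 and -0.10, not called. Fits without array 1 at 16 dpc are not given for the genes of this paragraph. Calcrl (10.22), Thbs2 (9.63) and Akr1c18 (8.02) had their highest value of the 6 arrays on it.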
